A study of Mus musculus with 14 samples.

Results

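Cysltr2, Tnfaip2, Nos1 and Syt6 are 4 of the 35976 genes counted in supporting cells (SCs) of the mouse cochlea, and they were selected on the size of their fall when Notch signaling was inhibited in the newborn organ. The values that chose them were the P0 counts with compound E and with DMSO, so their P0 values are given below as a description, with no test. Their P6 values come from libraries that took no part in the selection. Cochlear explants were prepared from Lfng-EGFP mice, which carry a bacterial artificial chromosome reporter of the GENSAT project (a B6;FVB line) on a C57BL/6 background, so every group shares the transgene. The explants were cultured for 24 hours with 2 μM compound E (CompE), an inhibitor of γ-secretase, or with an equal volume of the solvent DMSO, and the EGFP+ SCs were then sorted, with 4 organs pooled per tube. There were 4 CompE and 4 DMSO libraries at P0 and 3 of each at P6, each CompE library having a DMSO partner of the same replicate number. The P0 libraries belonged to batches 1 to 3 and the P6 libraries to batches 4 to 6, so age and batch cannot be told apart. Nothing in the labels says that replicates 3 and 4 at P0, which share a batch, came from separate litters, and the p-values below measure the spread between these libraries.

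Notch receptors on SCs are activated by ligands on neighboring hair cells (HCs), γ-secretase then cuts the receptor, and the freed intracellular part joins the DNA-binding protein RBPJ to switch on target genes that hold back the HC fate. Hes5 and Heyl encode transcriptional repressors of this kind, and Nrarp encodes a feedback inhibitor of the Notch complex. They serve here as the scale against which the 4 falls were measured. Cysltr2 encodes a G protein-coupled receptor for the cysteinyl leukotrienes, lipid mediators of inflammation. Tnfaip2 encodes a TNF-inducible protein related to the exocyst subunit Exoc3. Nos1 encodes the neuronal nitric oxide synthase, which makes nitric oxide from arginine. Syt6 encodes a synaptotagmin, a member of a family of membrane-trafficking proteins best known for calcium-triggered exocytosis.

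Library totals ranged from 19415066 to 44430063 counts on genes, and the smallest was CompE replicate 2 at P0. Levels are given as RPM, the count of a gene per 1000000 counts of the library. All 11 SC markers listed, among them Sox2, Prox1 and Fgfr3, were detected in every group, and their summed level was 21268 to 22973 RPM with CompE and 15183 to 20943 RPM with DMSO at P0. Tectb, a tectorial membrane protein, made up 12856 to 13596 and 6478 to 9409 RPM of these sums, which were 8413 to 9378 and 8705 to 11534 RPM without it, and 7 of the 11 markers had a negative log2 fold change (median -0.25). Lfng, the gene whose regulatory DNA drives the sorting reporter, had 912.4 ± 162.4 RPM with CompE and 2791 ± 1123 RPM with DMSO at P0 (SD, n = 4 each), with a log2 fold change of -1.67 (adjusted p = 0.0241 in edgeR, not called). The part of the sorting gate in the results was not tested. In sorted bulk RNA, fewer cells expressing a gene and less RNA per cell cannot be told apart.

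In the GRCm38 annotation, Cysltr2 (ENSMUSG00000033470) lies on the minus strand at chr14:73025603-73049114 and overlaps no other gene. Tnfaip2 (ENSMUSG00000021281) lies on the plus strand at chr12:111442469-111455018, Nos1 (ENSMUSG00000029361) on the plus strand at chr5:117781032-117958840, and Syt6 (ENSMUSG00000027849) on the plus strand at chr3:103575231-103645569. Tnfaip2 shares 314 exonic bases with the antisense gene Gm40578, which had 15 to 62 counts per library with CompE and 76 to 199 with DMSO at P0. Because the use of strand in counting is not stated, reads of such a pair may not be separable. Nos1 shares 268 exonic bases with Gm26995, which had at most 1 count in any library. Syt6 shares 505 exonic bases with Atg4a-ps, which has no row of that name among the counted genes.

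RBPJ binds the core sequence TGGGAA, so promoter windows of Tnfaip2, Syt6 and Cysltr2 are shown beside that of Hes5, a direct Notch target. The windows of Nos1 and Nrarp and the other Syt6 windows are described without their letters. RefSeq windows of the GRCm38.p6 build, from 250 bases before to 50 bases after each start site, were found for 6 of the 7 genes and not for Heyl. Capitals mark TGGGAA or its reverse complement TTCCCA, and each line runs 5′ to 3′ on the gene's strand. Hes5 (chr4:154960673-154960972, plus strand) held 2 matches, 82 and 226 bases before the start, and both extended to GTGGGAA or its complement. Tnfaip2 (chr12:111442411-111442710, plus strand) held 1 match 175 bases before its start. Syt6 had 3 windows, and that at chr3:103575876-103576175 (plus strand) held 1 match 168 bases before its start. Cysltr2 (chr14:73049065-73049364, minus strand) held none in these letters.
Hes5: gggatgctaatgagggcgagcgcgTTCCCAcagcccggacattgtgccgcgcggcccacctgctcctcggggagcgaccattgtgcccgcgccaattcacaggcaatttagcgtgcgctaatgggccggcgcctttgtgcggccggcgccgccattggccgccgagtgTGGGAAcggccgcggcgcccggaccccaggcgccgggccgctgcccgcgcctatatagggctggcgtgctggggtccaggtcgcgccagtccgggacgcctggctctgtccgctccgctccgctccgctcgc
Tnfaip2: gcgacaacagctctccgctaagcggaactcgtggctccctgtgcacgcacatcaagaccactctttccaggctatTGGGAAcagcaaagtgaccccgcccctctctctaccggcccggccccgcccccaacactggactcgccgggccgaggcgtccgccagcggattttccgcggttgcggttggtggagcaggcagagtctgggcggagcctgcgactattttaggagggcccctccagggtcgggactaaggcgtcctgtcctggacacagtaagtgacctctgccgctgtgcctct
Syt6: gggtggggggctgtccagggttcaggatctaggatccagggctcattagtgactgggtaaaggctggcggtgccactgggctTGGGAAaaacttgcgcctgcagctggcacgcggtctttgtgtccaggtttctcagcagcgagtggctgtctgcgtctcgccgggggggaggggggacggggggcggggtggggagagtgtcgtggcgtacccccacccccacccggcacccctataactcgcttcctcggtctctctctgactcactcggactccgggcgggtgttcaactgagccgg
Cysltr2: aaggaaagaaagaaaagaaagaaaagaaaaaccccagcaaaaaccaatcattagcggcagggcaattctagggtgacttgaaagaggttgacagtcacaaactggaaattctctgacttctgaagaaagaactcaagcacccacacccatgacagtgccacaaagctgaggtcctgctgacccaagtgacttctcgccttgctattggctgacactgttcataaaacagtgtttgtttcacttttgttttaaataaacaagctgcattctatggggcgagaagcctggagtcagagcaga
Of the other Syt6 windows, that starting at base 103574995 held a match in its first 6 bases, 250 bases before its start, and that starting at base 103575032 held none. The single windows of Nos1 (chr5:117866589-117866888) and Nrarp (chr2:25180508-25180807) held none. The Nos1 window and the Syt6 window shown lie within the annotated gene, downstream of its first start. The start site of the Tnfaip2 window is also downstream of the first annotated start, and the Tnfaip2 match lies within the annotated gene. Distances to a match are thus from the start site of the window, not from the gene coordinates above. The core was present in 25.6% and GTGGGAA in 6.38% of the 32851 windows of this length, both strands searched and overlaps allowed, so a single core match is common, and its presence or absence here is a description of letters only.

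At P0, Cysltr2 was close to the limit of detection with CompE and readily counted with DMSO. Its level was 0.113, 0.824, 0.379 and 0.189 RPM in CompE replicates 1 to 4, from 5, 16, 13 and 6 counts. In DMSO replicates 1 to 4 it was 2.88, 17.7, 6.92 and 18.0 RPM, from 76, 707, 218 and 549 counts. Every CompE library was below every DMSO library, and DMSO replicate 1 was the lowest of its group. CompE left 3.91%, 4.66%, 5.47% and 1.05% of the partner's level in pairs 1 to 4, and the group means were 0.376 ± 0.319 and 11.4 ± 7.67 RPM (SD, n = 4 each). The fitted log2 fold change, CompE over DMSO, was -5.10 (SE 0.775), a 34.3-fold lower level, with rank 3 from the lowest of 15937 genes tested.

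Tnfaip2 had the tightest CompE values of the 4 genes. CompE replicates 1 to 4 had 1.10, 1.85, 1.63 and 1.14 RPM, and DMSO replicates 1 to 4 had 38.2, 17.8, 16.4 and 25.9 RPM. The groups did not overlap, and DMSO replicate 1 stood highest. The level left was 2.89%, 10.4%, 9.98% and 4.38% of the partner's in pairs 1 to 4. The group means were 1.43 ± 0.372 and 24.6 ± 10.0 RPM, and the log2 fold change was -4.13 (SE 0.317), with rank 12 and the smallest error of the 4.

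Nos1 was likewise separated between treatments at P0. CompE replicates 1 to 4 had 1.42, 5.10, 3.59 and 1.70 RPM, and DMSO replicates 1 to 4 had 17.6, 53.9, 43.8 and 57.8 RPM. DMSO replicate 1 was again the low library of its group, as for Cysltr2, and no CompE library reached it. The level left was 8.08%, 9.46%, 8.19% and 2.95% in pairs 1 to 4, so pairs 1 to 3 lay close together and pair 4 was deeper. The group means were 2.95 ± 1.72 and 43.3 ± 18.1 RPM, and the log2 fold change was -3.95 (SE 0.519), with rank 17.

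Syt6 was the most abundant of the 4 and kept the most in its weakest pair. CompE replicates 1 to 4 had 5.31, 15.8, 11.2 and 6.57 RPM, and DMSO replicates 1 to 4 had 134.5, 178.7, 58.3 and 85.3 RPM. The groups did not overlap, and DMSO replicates 3 and 4, of the same batch, were lower than replicates 1 and 2. The level left was 3.95%, 8.82%, 19.2% and 7.70% in pairs 1 to 4. The group means were 9.70 ± 4.76 and 114.2 ± 53.3 RPM, and the log2 fold change was -3.60 (SE 0.447), with rank 26.

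A gene was called lower when edgeR's quasi-likelihood test gave a p of at most 0.01 after Benjamini-Hochberg adjustment and the fall was at least 2-fold, and 0.985% of all tested genes were so called at P0. All 4 genes were among them, which their selection fixed. Without CompE replicate 3, or without CompE replicate 4, Tnfaip2 alone of the 4 met that threshold, which describes the fits and is no test of the genes. Complete separation of the treatments, with every CompE library below every DMSO library, was found for 4.76% of genes, and 11.7% were lower in every pair. A total of 26 genes had a log2 fold change at or below that of Syt6, and 17 of these had a mean under 10 RPM with DMSO. Of the 133 genes called lower with at least 10 RPM in DMSO and no overlap, Cysltr2, Tnfaip2 and Nos1 were numbers 1 to 3 by log2 fold change and Syt6 was number 5. Number 4 was P2ry6, a receptor for the nucleotide UDP, at -3.85 (SE 0.283), which is not among the 4 genes described. The next below Syt6 were Slc2a9, a urate transporter, at -3.57, Frzb, a secreted Wnt inhibitor, at -3.55 and Fabp7, a fatty acid-binding protein, at -3.38.

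**Figure D1:**
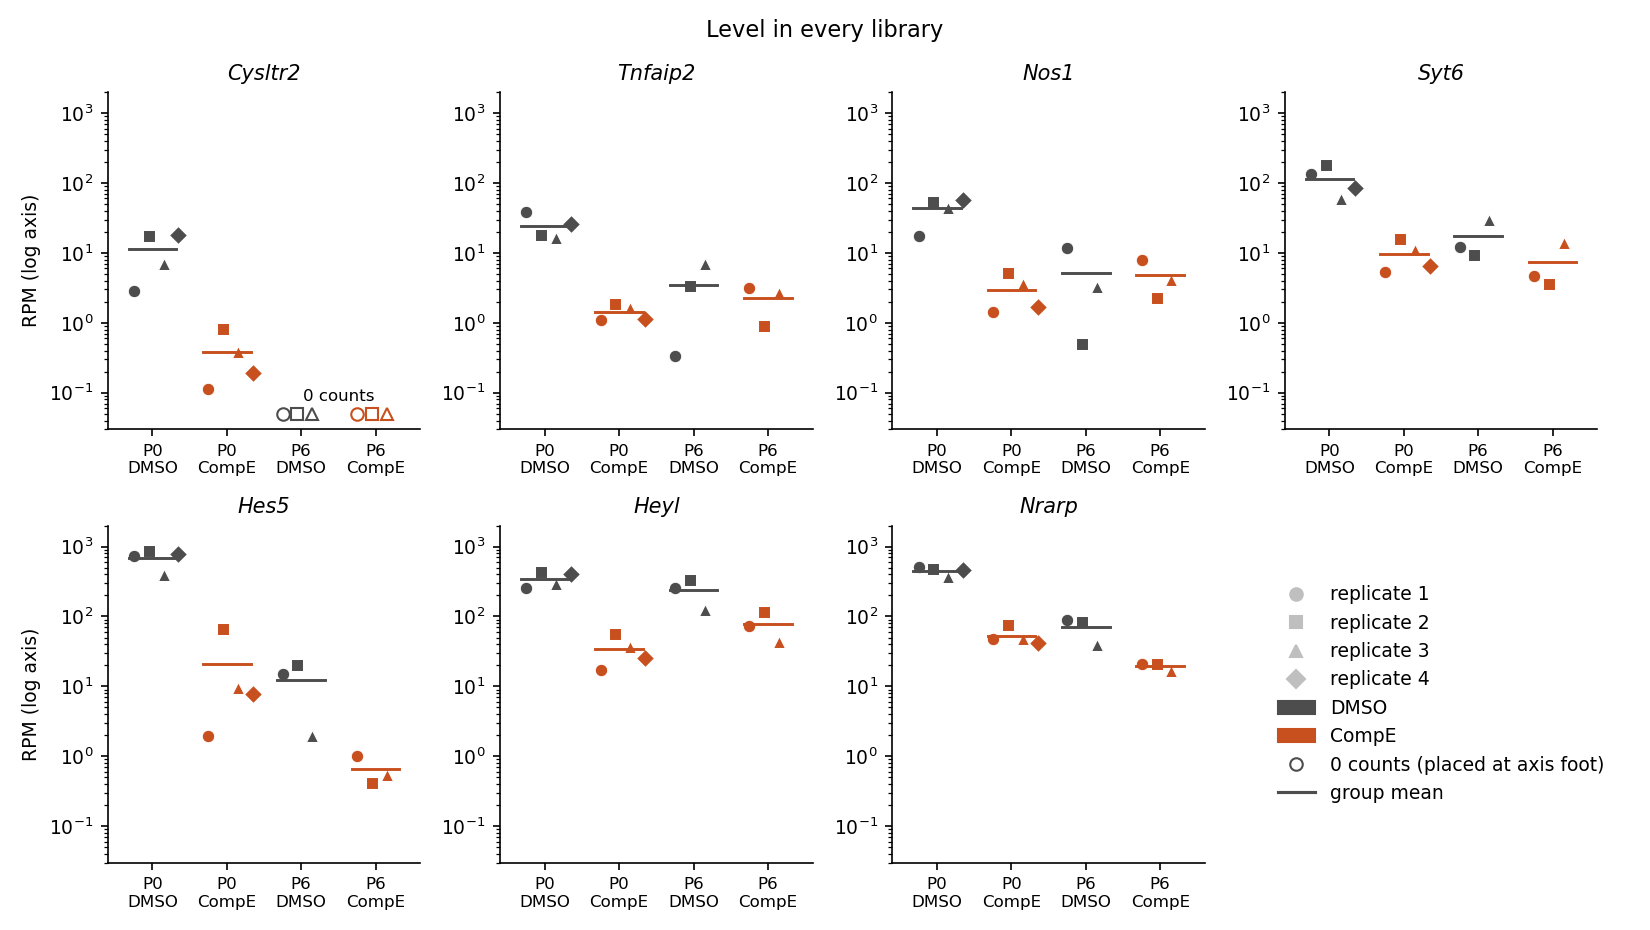
RPM on a log axis for the 4 genes (top row) and the 3 Notch targets (bottom row) in each of the 14 libraries, with DMSO in gray, compound E in orange, a marker shape for each replicate number and a line at the group mean; open markers at the foot stand for 0 counts. At P0 no orange point reaches a gray one in any panel, and at P6 the groups overlap for Tnfaip2, Nos1 and Syt6.

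The CompE libraries kept a common order across the genes. CompE replicate 2 was the highest of its group for 7 of 7 genes, the Notch targets included, and it also had the fewest counts. CompE replicate 1 was the lowest for 6 of 7. The order was not the same with DMSO, where replicate 2 was highest for 3 genes and replicates 1 and 4 for 2 each. Within pairs, the share left was smallest in pair 1 for 3 genes and in pair 4 for the other 4, and largest in pair 2 for 5.

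Hes5 showed the widest spread of the Notch targets at P0. It had 1.98, 65.4, 9.36 and 7.70 RPM in CompE replicates 1 to 4 and 731.5, 867.8, 387.0 and 775.7 RPM in DMSO replicates 1 to 4. CompE left 0.271%, 7.53%, 2.42% and 0.993% of the partner's Hes5, and its log2 fold change was -5.05 (SE 0.973, adjusted p = 0.0187 in edgeR, so not called). Hes5 was called in 5 of 15 alternatives, among them the fit with the replicate number as a block, at -6.01 (SE 0.748, adjusted p = 0.00247 in edgeR), and the fit without CompE replicate 2, at -6.81 (adjusted p = 0.00151). Heyl had 17.4, 57.0, 36.8 and 25.6 RPM with CompE against 256.5, 430.8, 288.3 and 398.5 RPM with DMSO, with 6.42% to 13.2% left and a log2 fold change of -3.36 (SE 0.382). Nrarp had 46.8, 75.9, 48.1 and 41.7 RPM against 502.0, 477.4, 363.1 and 455.7 RPM, with 9.15% to 15.9% left and a log2 fold change of -3.11 (SE 0.215). Hes5 had rank 5 from the lowest of all tested genes, Heyl rank 36 and Nrarp rank 43. By the fitted change, the order was therefore Cysltr2, Hes5, Tnfaip2, Nos1, Syt6, Heyl and Nrarp, in which each gene lay within the sum of the 2 SEs of its neighbors.

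Compared pair by pair on log2 ratios of RPM + 0.1, the change of Tnfaip2 was deeper than that of Heyl in 4 of 4 pairs, by 0.53 ± 0.397 (mean ± SD of the differences), and deeper than that of Nrarp in 4 of 4, by 0.85 ± 0.545. Cysltr2 was deeper than Nrarp in 4 of 4 pairs, by 1.37 ± 0.917, and deeper than Heyl in 3. These comparisons of Cysltr2 depended on the pseudocount. With none, Cysltr2 was at -4.68 and Heyl at -3.89 in pair 1, the pair in which Cysltr2 was otherwise shallower. With 1 RPM, the mean log2 ratio of Cysltr2 was -2.92, less negative than -3.39 for Heyl and -3.09 for Nrarp. Nos1 was deeper than Nrarp in 4 of 4 pairs, by 0.77 ± 0.593, and deeper than Heyl in 3. Syt6 was the closest of the 4 to Heyl and Nrarp, deeper than Nrarp in 3 of 4 pairs and than Heyl in 2. Its mean differences from Nrarp and Heyl, 0.44 ± 0.768 and 0.12 ± 0.654, were smaller than their spread. Against Hes5 the direction was the other way. Tnfaip2, Nos1 and Syt6 were shallower than Hes5 in every pair, by 2.09 ± 1.20, 2.17 ± 1.94 and 2.50 ± 1.56, and Cysltr2 was deeper than Hes5 only in pair 2. The mean log2 ratio over pairs was -6.04 ± 2.00 for Hes5 and -4.48 ± 1.01 for Cysltr2, so Hes5 came first by pairs and Cysltr2 by the fit of group means. Without CompE replicate 2, in which Hes5 had 65.4 RPM, the log2 fold change of Hes5 was -6.81 and that of Cysltr2 was -5.73.

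**Figure D2:**
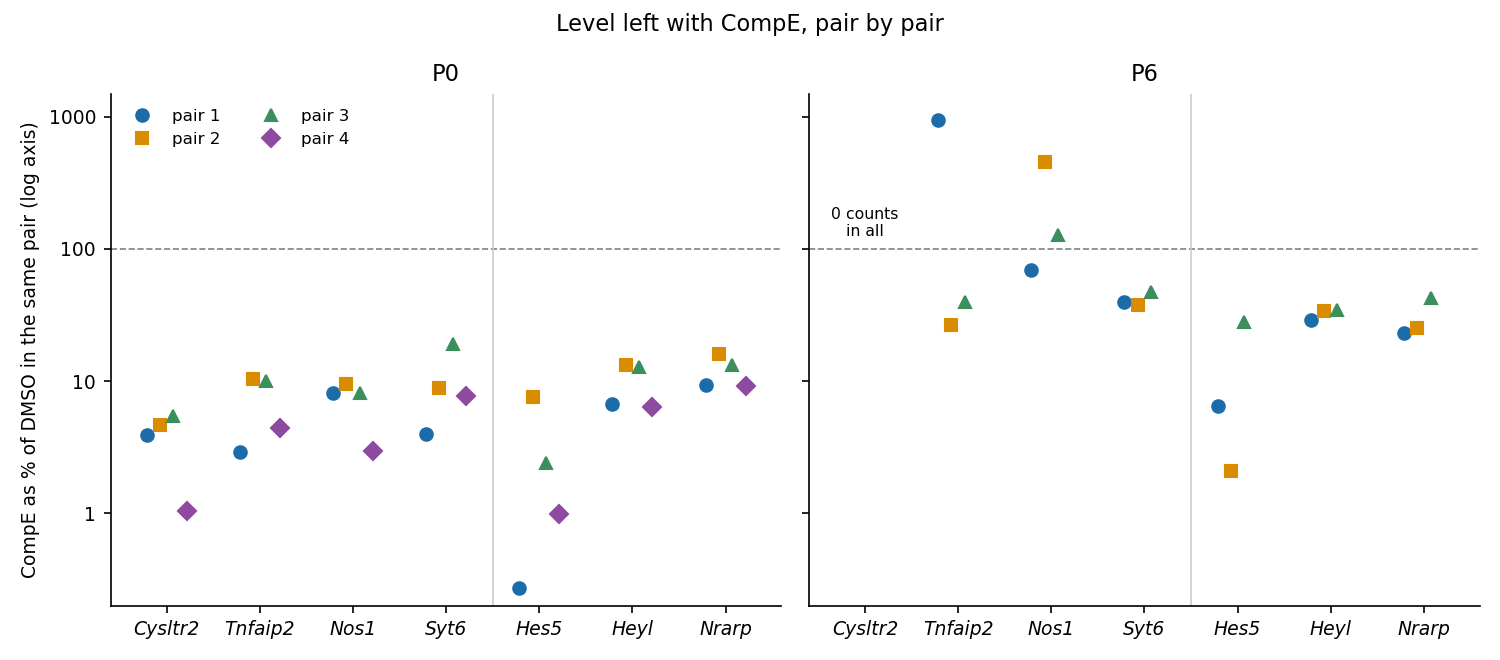
The RPM with compound E as a percentage of that with DMSO in the library of the same replicate number, on a log axis, at P0 (4 pairs) and P6 (3 pairs), with a dashed line at no difference. At P0 every point lies at or under 19.2%, whereas at P6 Tnfaip2 and Nos1 lie on both sides of the line, Syt6 lies at 37.5% to 46.9% and Cysltr2 cannot be drawn.

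At P6, 0% of genes were called lower by edgeR (0 of 15322, with 289 genes at an unadjusted p under 0.05 in either direction and 11 called by DESeq2). Cysltr2 had 0 counts in all 6 libraries, so no change could be measured. With 23972228 to 41207627 counts per library, 0 counts allows a level of up to 0.0728 to 0.125 RPM in a library (3 counts, counting error only), which lies below 3 of the 4 CompE values at P0.

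Tnfaip2 had no common direction at P6. It had 3.14, 0.906 and 2.695 RPM in CompE replicates 1 to 3 and 0.334, 3.39 and 6.84 RPM in DMSO replicates 1 to 3. CompE was at 941.7% of DMSO in pair 1 and at 26.8% and 39.4% in pairs 2 and 3, and the groups overlapped. The log2 fold change was -0.64 (SE 0.971, adjusted p = 1.00 in edgeR), and it was 0.21 without DMSO replicate 3. The mean difference of 1.27 RPM was within the spread (exact permutation p = 0.6, two-sided, n = 3 each, where 0.1 is the smallest possible).

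Nos1 was as variable. CompE replicates 1 to 3 had 8.00, 2.30 and 4.15 RPM and DMSO replicates 1 to 3 had 11.6, 0.504 and 3.28 RPM, so replicate 1 was the highest and replicate 2 the lowest in both treatments. CompE was at 68.7%, 456.1% and 126.7% of DMSO in pairs 1 to 3, that is, lower in 1 pair of 3. The log2 fold change was -0.08 (SE 0.980, adjusted p = 1.00 in edgeR) and the exact permutation p was 1. The sign was not fixed, since the value was 0.58 with the replicate number as a block and ranged from -0.65 to 1.38 when single libraries were left out.

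Syt6 was the only one of the 4 that was lower with CompE in all 3 pairs at P6. CompE replicates 1 to 3 had 4.73, 3.55 and 14.1 RPM and DMSO replicates 1 to 3 had 12.0, 9.47 and 30.0 RPM. The level left was 39.4%, 37.5% and 46.9%, a narrow range, although replicate 3 was the highest library of both treatments and made the groups overlap. The log2 fold change was -1.20 (SE 0.614, unadjusted p = 0.0909 and adjusted p = 1.00 in edgeR). With the replicate number as a block it was -1.27 (SE 0.195, unadjusted p = 0.000801 and adjusted p = 0.365), so Syt6 was not called in either fit. A fall in every pair was seen for 17.1% of all genes tested at P6, and the exact permutation p of the mean RPM was 0.3 (adjusted p = 0.45 over 6 genes).

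The 3 Notch targets were lower with CompE in every pair at P6 and did not overlap between treatments, as was true of 4.14% of genes. Hes5 had 0.994, 0.418 and 0.546 RPM with CompE against 15.3, 20.1 and 1.94 RPM with DMSO, and its log2 fold change was -4.27 (SE 0.905). Heyl left 29.0% to 34.6% and Nrarp 23.2% to 42.5% of the partner's level, with log2 fold changes of -1.61 (SE 0.487) and -1.85 (SE 0.344). None of the 3 was called by edgeR, while DESeq2 called Hes5 (adjusted p = 0.000696) and Nrarp (adjusted p = 0.000775) but not Heyl. The exact permutation p of each of the 3 was 0.1 (adjusted p = 0.2), the smallest this design can give. The change of each of Tnfaip2, Nos1 and Syt6 was set against that of each Notch target in 9 tests on the log2 ratio of the 2 genes in each library. The log2 change of Nos1 and of Syt6 was less negative than that of each target in every pair, and that of Tnfaip2 was less negative than that of Hes5 in every pair. For Syt6 the difference was 0.35 ± 0.170 from Heyl and 0.50 ± 0.326 from Nrarp, while Nos1 and Hes5 differed by 4.18 ± 2.75. No difference passed the exact permutation test (p = 0.1 to 0.7, adjusted p = 0.54 to 0.7), which compared the groups and took no account of the pairs.

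**Figure D3:**
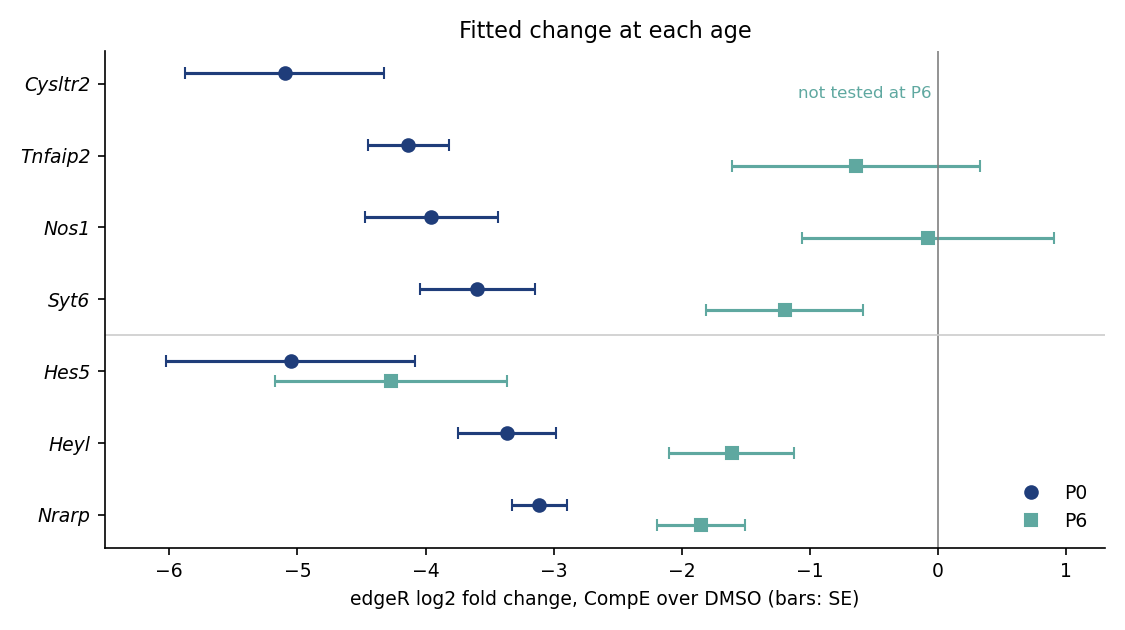
Fitted log2 fold change, compound E over DMSO, with its SE for each gene at P0 (circles) and P6 (squares), each age fitted alone. The P6 value is nearer to 0 than the P0 value for every gene fitted at both ages, and the P6 bars of Tnfaip2 and Nos1 cross 0; the difference between ages was not tested for the 4 genes because their P0 values selected them.

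The 4 genes also had lower levels at P6 than at P0 in SCs kept in DMSO. In these libraries, mean RPM at P0 was 6.98 times that at P6 for Tnfaip2, 8.42 times for Nos1 and 6.65 times for Syt6. The libraries of the ages did not overlap for any of them, but the share of all genes separated in this way between ages was not counted. Cysltr2 was at least 90.9-fold higher at P0 (mean 11.4 ± 7.67 RPM against the highest floor of a P6 DMSO library, 0.125 RPM for 3 counts), and at least 22.9-fold for the lowest P0 library. Of the Notch targets, Hes5 was 55.5 times and Nrarp 6.34 times as high at P0, and Heyl was 1.45 times as high, with overlapping libraries. With CompE, the P0 and P6 libraries overlapped for Tnfaip2 (1.43 ± 0.372 and 2.25 ± 1.18 RPM), Nos1 (2.95 ± 1.72 and 4.82 ± 2.91 RPM) and Syt6 (9.70 ± 4.76 and 7.45 ± 5.76 RPM). The P0 CompE levels of these 3 genes thus lay in the range of the P6 libraries. These comparisons across ages carry no test, since the P0 DMSO level entered the selection and each age had its own batches.

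Per kilobase of exonic length (RPKM), Syt6 was the most abundant of the 4 with DMSO at P0, at 19.6 ± 9.15, and all its libraries lay above those of the other 3. Tnfaip2 at 4.93 ± 2.01, Cysltr2 at 3.96 ± 2.67 and Nos1 at 3.88 ± 1.63 followed and overlapped each other. The Notch targets were higher, with 506.6 ± 154.2 for Hes5, 174.1 ± 23.5 for Nrarp and 67.2 ± 16.5 for Heyl. With CompE at P0 the order of the 4 was Syt6 at 1.66 ± 0.817, Tnfaip2 at 0.287 ± 0.0746, Nos1 at 0.265 ± 0.155 and Cysltr2 at 0.131 ± 0.111 RPKM, the last 3 overlapping. With DMSO at P6 it was Syt6 at 2.94 ± 1.92, Tnfaip2 at 0.706 ± 0.653 and Nos1 at 0.461 ± 0.520 RPKM, with Cysltr2 at 0. All Syt6 libraries lay above those of Tnfaip2 and Nos1, which overlapped each other.

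Genes that work with each of the 4 were read from lists, at P0 unless stated. Among all 15937 genes tested at P0, edgeR called 1.22% in either direction, 13.4% had an unadjusted p under 0.05 in edgeR, and DESeq2 called 425. Of 15 leukotriene genes, 7 were tested and 0 were called in edgeR (3 at an unadjusted p under 0.05, and 1 called by DESeq2), with a median log2 fold change of 0.03 against 0.01 for all genes. Alox5, the 5-lipoxygenase that begins leukotriene synthesis, was noticed after its value was seen, at -2.54 (SE 0.572, adjusted p = 0.0376). The most abundant members of the list were Mgst3, a glutathione transferase, at 347.0 ± 143.3 RPM with DMSO and a log2 fold change of -0.88, and Lta4h, which makes leukotriene B4, at 96.9 ± 6.27 RPM and 0.03. The other cysteinyl leukotriene receptor, Cysltr1, was at or under 0.857 RPM in all P0 libraries.

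Of the 14 exocyst subunits and Tnfaip2 relatives, all were tested and 1 was called lower. This was Exoc3l4, a relative of Tnfaip2, at 0.372 ± 0.131 RPM with CompE and 5.32 ± 2.55 RPM with DMSO (log2 fold change -3.88, SE 0.406, adjusted p = 0.000857 in edgeR). Exoc3l4 is also its neighbor, on the plus strand at chr12:111417017-111431678, 10790 bases before the start of Tnfaip2. At P6 Exoc3l4 had a log2 fold change of -2.51 (SE 1.21) and was not called. The other 13 members lay between -0.85 and 0.09, and the abundant Exoc5 and Ralb were at 0.02 (SE 0.118) and -0.17 (SE 0.140). Among 16 TNF-inducible NF-kB targets, a list relevant to the name of Tnfaip2, 0 were called by edgeR (2 at an unadjusted p under 0.05) and 0 by DESeq2, with a median of -0.18, and the abundant Nfkbia and Tnfaip3 were at -0.17 (SE 0.139) and -0.21 (SE 0.179).

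Of 21 nitric oxide genes, 19 were tested, 1 was called lower and 1 higher by edgeR, with a median of -0.06. Of these 19, 8 had an unadjusted p under 0.05 in edgeR and 6 were called by DESeq2. Over all 15937 tested genes, edgeR called 1.22% in either direction, 13.4% had an unadjusted p under 0.05 in edgeR, and DESeq2 called 425. Gucy1b3, the beta subunit of the guanylate cyclase that senses nitric oxide, fell from 36.8 ± 7.05 to 11.7 ± 2.58 RPM (log2 fold change -1.70, SE 0.221, adjusted p = 0.00266). Gch1, which starts the synthesis of the nitric oxide synthase cofactor tetrahydrobiopterin, rose from 4.24 ± 0.527 to 10.0 ± 2.34 RPM (1.20, SE 0.194, adjusted p = 0.00791). The abundant Gucy1a3, the alpha subunit, was at -1.18 (SE 0.278, adjusted p = 0.0457, not called) and Ddah1, which breaks down inhibitors of the synthase, at 0.27 (SE 0.143). The lowest of the list was Ass1, named after its value was seen, at -2.20 (SE 0.385, adjusted p = 0.0118 in edgeR, not called). Nos1ap, likewise named afterwards, went the other way at 0.78 (SE 0.133, adjusted p = 0.0103 in edgeR, not called). The other synthases were low, with Nos3 at or under 1.45 RPM and Nos2 at or under 0.222 RPM in every P0 library.

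Of 23 synaptotagmin family genes, 18 were tested and 0 were called by edgeR, with a median of 0.04. Of these 18, 5 had an unadjusted p under 0.05 in edgeR (13.4% of all genes) and 2 were called by DESeq2 (425 of all 15937 genes). The abundant Syt11 was at 162.3 ± 19.9 RPM with DMSO and -0.09 (SE 0.118), and Syt1, the calcium sensor of fast transmitter release, at 103.9 ± 39.8 RPM and -0.82 (SE 0.249, adjusted p = 0.133). Syt10 was noticed after its value was seen, at 0.226 ± 0.165 RPM with DMSO and 2.40 ± 1.21 RPM with CompE (3.39, SE 0.611, adjusted p = 0.0135, not called). The lowest of the list was Sytl5, also named after its value was seen, at -2.19 (SE 0.484, adjusted p = 0.0356 in edgeR, not called). At P6 Sytl5 was at -2.91 (SE 1.22) and was not called. Of 7 Notch target genes, by contrast, 5 were called lower by edgeR and 7 by DESeq2, 7 had an unadjusted p under 0.05, and the median was -2.702. The largest called changes were those of Heyl, Nrarp, Hes1 at -2.702 (SE 0.267) and Hey1 at -1.65 (SE 0.159). At P6, 0 genes of any of these lists were called by edgeR, with 0 to 4 of each list other than the Notch targets and 6 of the 7 Notch targets at an unadjusted p under 0.05, and DESeq2 called 3 Notch targets and 0 genes of the other lists. Among all 15322 genes tested at P6, 289 had an unadjusted p under 0.05 in edgeR and DESeq2 called 11.

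**Figure D4:**
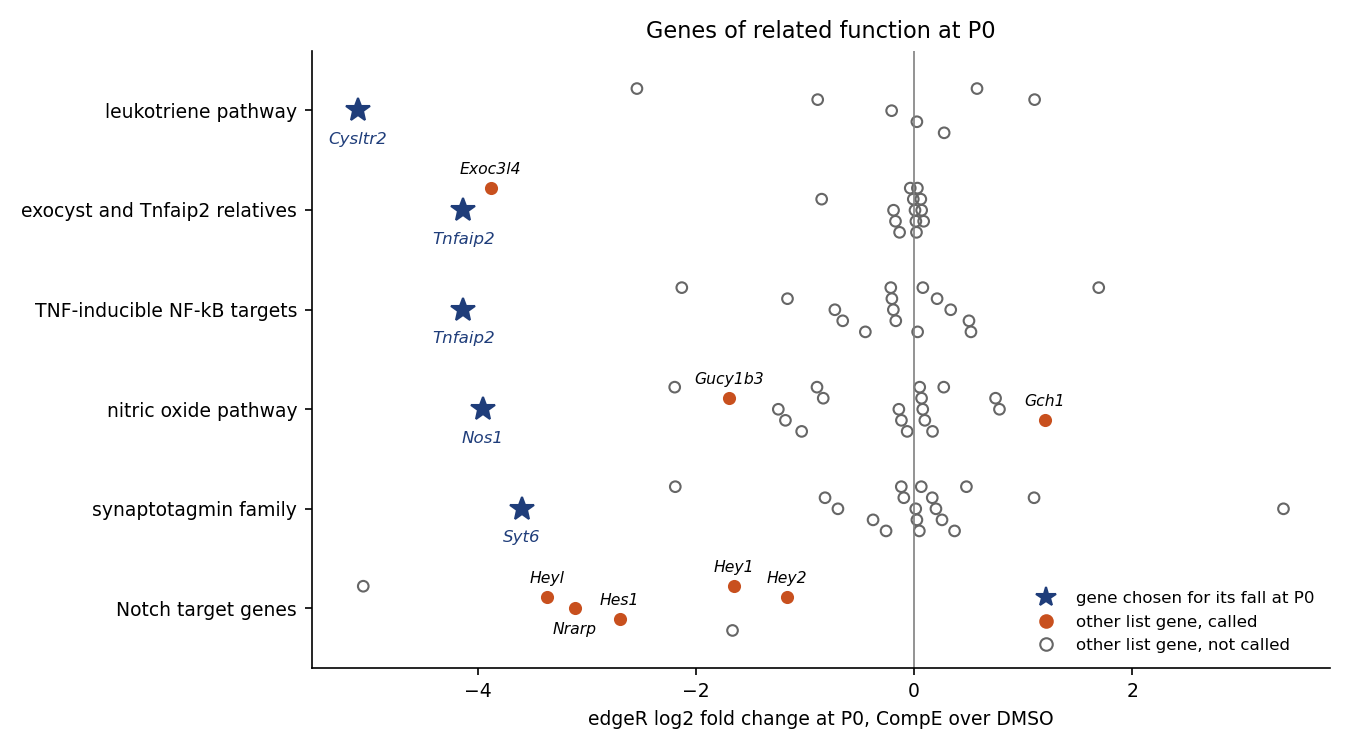
P0 log2 fold change, compound E over DMSO, of every tested gene of 6 lists, a row for each list, with the gene described here as a star, called genes filled and labelled, and other genes open. The stars of Cysltr2, Nos1 and Syt6 lie to the left of every gene of their lists, and that of Tnfaip2 has Exoc3l4 beside it; the vertical offset within a row has no meaning.

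Genes listed as markers of other cells were detected in the sorted libraries, which does not by itself show that such cells were present. The summed level of 12 HC markers was 1281 to 2325 RPM with CompE and 654.2 to 1489 RPM with DMSO at P0, and that of 6 mesenchyme markers was 1190 to 1342 and 916.0 to 1090 RPM. Lum, a matrix proteoglycan, carried most of the mesenchyme sum, which was 203.5 to 309.0 and 204.6 to 402.4 RPM without it, and 5 of the 6 had a negative log2 fold change (median -0.35). Those of 10 neuron markers (133.8 to 170.4 and 111.9 to 193.6 RPM), 8 endothelial markers (16.9 to 31.0 and 25.7 to 45.2 RPM) and 11 leukocyte markers (3.98 to 16.3 and 1.98 to 23.2 RPM) overlapped between treatments. The 7 glia markers summed to 412.1 to 482.7 RPM with CompE and 427.8 to 707.5 RPM with DMSO. Sox10 made up 332.2 to 391.3 and 256.4 to 347.8 RPM of these sums, which were 79.9 to 105.8 and 171.4 to 392.2 RPM without it. Fabp7 made up 12.4 to 24.8 and 106.6 to 339.2 RPM, and 4 of the 7 had a negative log2 fold change. Of the markers of cells other than SCs, Fabp7 alone was called by edgeR, lower, at P0. Fabp7 also serves as a marker of an SC subtype, the inner phalangeal and border cells. DESeq2 also called Atoh1 of the HC list, higher, and Jag1 of the SC list, lower, as did edgeR with the replicate block. No marker of any list was at 0 in every library. At P6 the leukocyte sum was widest, 18.6 to 138.3 RPM with CompE and 4.47 to 56.1 RPM with DMSO. The part of these cells in the levels of the 4 genes was not tested.

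The genes with the most similar profiles were found by the root mean square difference of log2(RPM + 0.1), each profile centred on its mean, over the 14 libraries among 11269 genes with at least 5 RPM in P0 DMSO libraries. The likeness is a description, because all profiles share the same libraries and depth and both the treatment and the age shape them. For Cysltr2 they were Gm35040, a long noncoding RNA gene at chr7:79536043-79560033, at 0.55, Pdzk1ip1 at 0.94 and Tal1, a transcription factor of blood cell formation, at 1.03. Pdzk1ip1 and Tal1 are themselves neighbors on chromosome 4, 16952 bases apart. For Tnfaip2 they were AW011738 at 0.90, Syt6 at 0.95 and Rhov, a small GTPase, at 0.98. For Nos1 they were Pdgfrb, a PDGF receptor, at 0.96, Hopx, a homeodomain-only protein, at 1.01 and Dgat2, an enzyme of triacylglycerol synthesis, at 1.02. For Syt6 they were Exoc3l4 at 0.65, Pdgfrb at 0.73 and Asic2, an acid-sensing ion channel, at 0.78. Of the Notch targets, Nrarp came nearest to all 4, in places 13, 20, 40 and 10 for Cysltr2, Tnfaip2, Nos1 and Syt6, while Hes5 came in places 36, 11212, 11175 and 11131. The profiles were not scaled, so a difference in size counts as much as one in direction. A flat profile would lie at 1.90, 1.95 and 1.76 from Tnfaip2, Nos1 and Syt6, nearer than Hes5 at 2.76, 2.74 and 2.44. The late places of Hes5 therefore do not mean an opposite direction, and Hes5 was lower with CompE in every pair.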

How the data were processed

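Cochlear SCs sorted from Lfng-EGFP explants were sequenced after SMART-Seq v4 PLUS library preparation, without molecular identifiers, so intervals and floors cover counting error only. The authors trimmed reads with Trim Galore 0.6.0 and Cutadapt 1.15, mapped them with STAR (2.7.0f per the processing notes) to GRCm38 and deposited raw counts per gene symbol, without normalization or filter; the annotation release and use of strand are not given in the sources used here. RPM and RPKM were computed here from library totals and GENCODE M21 exonic lengths. Fold changes came from edgeR 4.0.16 (R 4.3.3; TMM, filterByExpr with a minimum count of 10, glmQLFit and glmQLFTest), each age alone, with treatment as the only term, and the step was tested on simulated data. Single values at P6 were compared with exact two-sided permutation tests (scipy 1.17.1) with Benjamini-Hochberg adjustment. Ratios within pairs used a pseudocount of 0.1 RPM. Cysltr2 had no P6 counts, so 9 of 12 planned comparisons with the Notch targets could be made.

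The labels tie each replicate number to a batch, and libraries were paired by that number. Deviations from the group means correlated within every pair (0.162 to 0.500 at P0 and 0.264 to 0.620 at P6). Libraries of different numbers were not compared in this way, so these values cannot show that the numbers pair the libraries. At P0, replicates 3 and 4 share a batch, so their pairs rest on the replicate number alone. No 2 replicates agreed within sampling noise (chi-square over its degrees of freedom of 20.5 or more). Totals of 19415066 to 44430063 counts make counting error small above 10 RPM, and the spread between libraries (biological coefficient of variation 27.2% at P0 and 46.7% at P6) set the precision. The genes and the lists were chosen with earlier results of these data known. Named beside them, by rule, were the next genes in the same ranking, overlapping genes, called and most abundant genes of each list and the 3 most similar profiles. Gucy1a1 and Gucy1b1 were matched by their older symbols. The alternatives were DESeq2 1.42.0, its size factors, no filter, the replicate number or batch as a block, all 14 libraries in one fit, downsampled counts, other pseudocounts and denominators, and leaving out each library.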

Additional observations from a re-analysis of the deposited data

Results flagged for a closer look

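Hes5, the Notch target set beside the 4 genes, had 65.4 RPM in CompE replicate 2 at P0 against 1.98 to 9.36 RPM in the other 3 CompE libraries, a gap larger than Dixon's 95% limit for 4 samples. Of 14 groups of 4 libraries checked, this was the only such value, and chance alone marks about 1 group in 20. None of the values of Cysltr2, Tnfaip2, Nos1 or Syt6 stood apart in this way.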

How the results depend on the processing

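At P0, the 195 genes called became 425 with DESeq2, 350 with the replicate block, 334 with the batch block, 117 with all 14 libraries in one fit and 80 to 225 when each library was left out (fewest without CompE replicate 3). The share of calls that were higher was 19.5% in the reported fit, 31.1% with the replicate block and 30.5% with the batch block. Tnfaip2 passed the call threshold in 15 of 15 alternatives, Syt6 in 13, Nos1 in 12 and Cysltr2 in 8, always lower. The same P0 counts selected the genes, so these passes describe the fits and are no test of the genes. Without CompE replicate 3 or 4, Cysltr2, Nos1 and Syt6 did not pass, and Cysltr2 also did not pass without CompE replicate 1 or DMSO replicate 2, 3 or 4. With all 14 libraries in one fit, Cysltr2 and Nos1 did not pass. The mean pair ratio of Cysltr2, -4.48 on the log2 scale, was -2.92 with a pseudocount of 1 RPM and -4.97 with none. At P6, the 0 genes called by edgeR (289 at an unadjusted p under 0.05) became 11 with DESeq2. The P6 log2 fold change of Nos1 was 0.58 with the replicate block and -0.65 to 1.38 when each library was left out, and that of Tnfaip2 was -1.18 to 0.21; that of Syt6 stayed negative at -2.00 to -0.56. The cause was not tested. The replicate block changed no call of the 4 genes at either age, while Hes5 at P0 was called with it. CompE counts of 5 to 16 limit the precision of Cysltr2 at P0, and 3 libraries a group limit every P6 test.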
